A study of Mus musculus with 65 samples.

Results

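Cadherins and protocadherins are cell surface adhesion proteins, and their genes were examined in 65 single cells of the embryonic mouse cortex. All genes whose symbol begins with Cdh and a digit, or with Pcdh, were taken, which gave 26 of the 11971 genes of the count table. They comprise 5 classical cadherins, 2 other cadherins, 8 protocadherins that lie outside the gene clusters and 11 clustered protocadherins. The series design names transcriptional heterogeneity among neural progenitor cells as the subject. Cells came from the cortical hemispheres, freed of the ganglionic eminences, of C57BL/6J embryos at E13.5. All embryos contributed to a single pool, and sorted cells had excluded propidium iodide, a dye that enters dead cells. No genotype, treatment or time point separates the cells, and no animal is named, so that cells are not replicates. Errors below are standard deviations (SD) across cells or exact 95% intervals by the Clopper-Pearson method, which reflect counting error alone, and no p-value was computed.

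Classical cadherins bind the same or related cadherins on a neighbouring cell through their extracellular repeats and are linked to actin through catenins, which holds neural progenitors together at the adherens junctions of the ventricular surface. The protocadherins outside the clusters, most of them of the delta group, are adhesion proteins too and signal through other partners. Clustered protocadherins are transcribed from alternative promoters lying in tandem, and single neurons are known to choose different isoforms, which gives a cell an identity that its own processes recognise.

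Because all cells carry the label neural progenitor cell, classes were formed from the genes themselves. Expression was taken to start at 10 counts per 1000000 reads (CPM). There were 18 Sox2 progenitors, which expressed the progenitor factor Sox2 and neither Neurod6 nor Dlx5. A further 16 Neurod6 neurons expressed Neurod6, a factor of cortical excitatory neurons, and 11 Dlx5 cells expressed Dlx5, a factor of ventral forebrain cells and interneurons. The remaining 20 cells expressed none of the 3 genes. The label and the markers were mixed in the Neurod6 neurons. There all 5 pan-neuronal markers were expressed in the median cell, and of the 10 progenitor markers the median cell expressed 2.5, against 6.5 in Sox2 progenitors. Sox2, used to form the classes, and Hes5, expressed in 3 of 18 Sox2 progenitors, reached 10 CPM in none of these neurons. Vim did so in 15 of 16, Fabp7 in 10 and Nes in 6. Pax6 did so in 3, Notch1 and Id4 in 2 each, and Hes1 and Slc1a3 in 1 each. Eomes, a factor of intermediate progenitors, was expressed in 10 of the neurons. The median Sox2 progenitor in turn expressed 2 of the 5 pan-neuronal markers. In the Dlx5 cells 4 of 11 also expressed Sox2, and the median cell expressed 5 of 8 interneuron markers. Totals ranged from 85338 to 32130629 reads, 3 cells had fewer than 1000000, and the median number of genes with a read was 6405, 5866 and 6036 in Sox2 progenitors, Neurod6 neurons and Dlx5 cells. The titles part the cells into 3 numbered sets without explanation, which hold 7, 5 and 6 of the progenitors, 11, 2 and 3 of the neurons and 7, 2 and 2 of the Dlx5 cells. These title sets may be batches, and class and set are therefore partly mixed. Cajal-Retzius markers reached 3 or more of 8 in 1 of the Neurod6 neurons and in no Sox2 progenitor or Dlx5 cell, and their summed level ranged up to 327, 8721 and 152 CPM in progenitors, neurons and Dlx5 cells. Of 6 measured mural and meningeal markers no cell of these 3 classes expressed more than 1. The 4 measured erythroid genes had median summed levels of 315, 36.7 and 122 CPM in progenitors, neurons and Dlx5 cells, and the part of such RNA in the differences between classes was not tested.

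The promoters of 3 delta protocadherins are shown first, because Pcdh7 and Pcdh9 were the genes most shifted towards Neurod6 neurons and Pcdh18 was shifted towards progenitors. Each window runs from 250 bases before to 50 bases after the RefSeq start (GRCm38.p6, on the strand of the gene), and CG dinucleotides are in capitals. The windows lie at chr14:93890630-93890929 on the minus strand for Pcdh9, at chr5:57717831-57718130 on the plus strand for Pcdh7 and at chr3:49757267-49757566 on the minus strand for Pcdh18.
Pcdh9: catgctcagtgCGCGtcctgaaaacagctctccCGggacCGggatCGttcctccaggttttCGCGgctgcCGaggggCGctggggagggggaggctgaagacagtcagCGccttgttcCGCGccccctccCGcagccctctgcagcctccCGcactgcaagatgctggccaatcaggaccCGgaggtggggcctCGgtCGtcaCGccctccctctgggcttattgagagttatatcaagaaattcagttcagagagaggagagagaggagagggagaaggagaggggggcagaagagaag
Pcdh7: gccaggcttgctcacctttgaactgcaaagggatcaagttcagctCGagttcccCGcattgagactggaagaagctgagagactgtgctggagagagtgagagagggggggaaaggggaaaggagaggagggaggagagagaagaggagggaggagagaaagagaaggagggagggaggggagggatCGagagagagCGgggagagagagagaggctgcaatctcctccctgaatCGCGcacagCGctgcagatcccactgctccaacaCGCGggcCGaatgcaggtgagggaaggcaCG
Pcdh18: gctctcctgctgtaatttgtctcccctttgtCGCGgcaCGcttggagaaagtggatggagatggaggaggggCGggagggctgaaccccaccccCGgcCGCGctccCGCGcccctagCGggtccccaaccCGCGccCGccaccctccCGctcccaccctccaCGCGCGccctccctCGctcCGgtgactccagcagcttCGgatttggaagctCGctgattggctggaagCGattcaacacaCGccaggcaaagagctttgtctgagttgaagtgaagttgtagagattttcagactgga

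The window of Pcdh9 holds 18 CG dinucleotides, that of Pcdh7 11 and that of Pcdh18 23, against a median of 7 over the 32851 mouse promoter windows of the same length. Of all windows, 70.3%, 58.6% and 78.5% hold fewer CG than those of Pcdh9, Pcdh7 and Pcdh18, so that none of the 3 counts is unusual. A total of 10 of the 26 genes matched the promoter table, with 13 windows. The motif CAGATG, a form of E-box bound by Neurod and Neurog factors, or its reverse complement CATCTG, is in 17.2% of all windows. It is in none of the 3 windows shown and in 1 of the 3 windows of Cdh7, which says only that these letters are absent from the other windows.

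**Figure D1:**
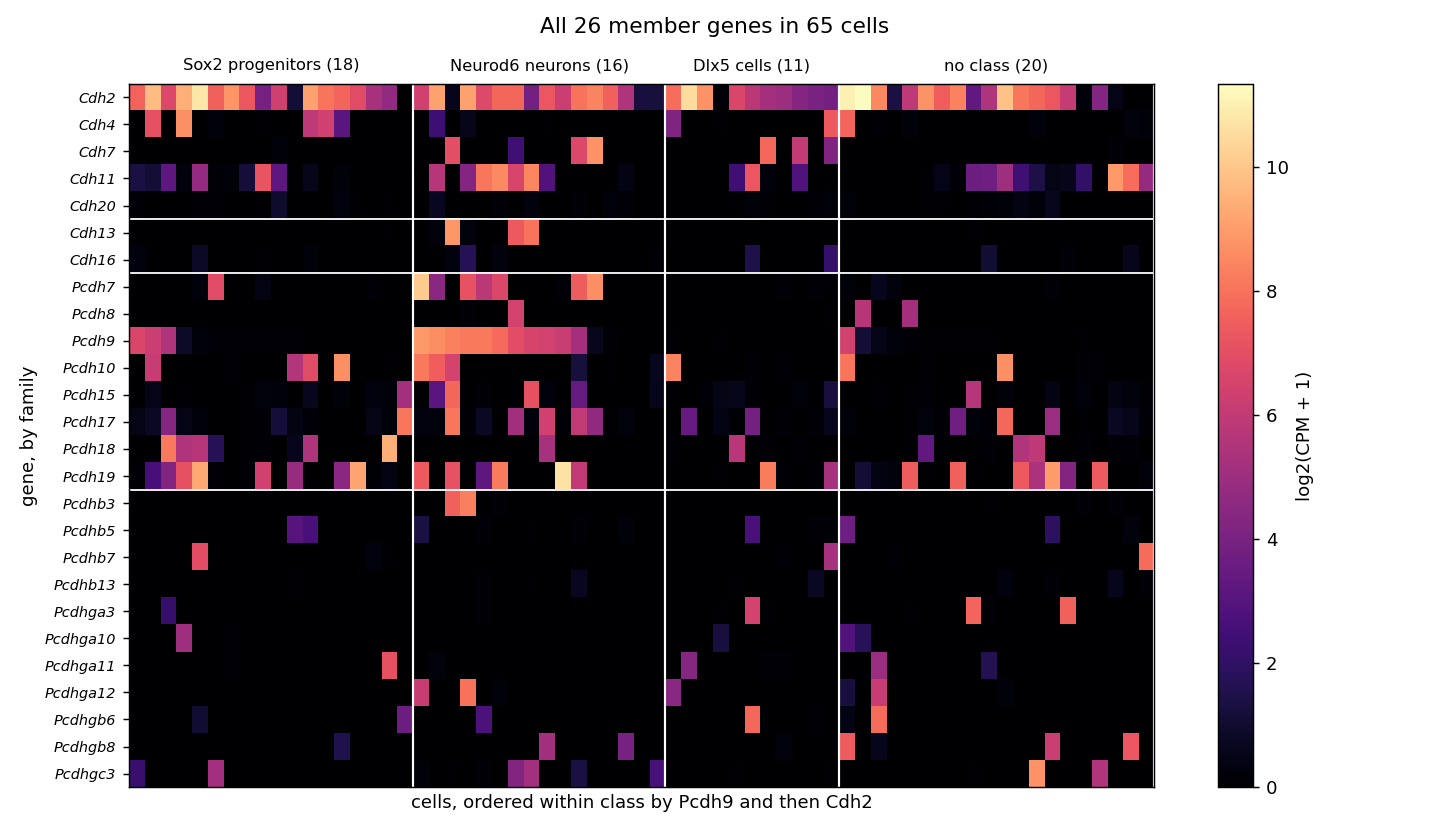
Level of each of the 26 genes (rows, by family, with white lines between families) in each of 65 cells (columns, grouped by class), as log2(CPM + 1) by colour. Within a class the cells are ordered by their level of Pcdh9 and then of Cdh2. Cdh2 is bright in most columns of every class, Pcdh9 is bright in 11 of 16 Neurod6 neurons and dark in all 11 Dlx5 cells, and the clustered protocadherins at the bottom are bright in scattered single cells.

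Most of these genes were absent from most cells. Of the 1690 pairs of a member and a cell, 70.2% had no read and 11.6% reached 10 CPM, against 50.6% and 22.9% over all genes. The median member was expressed in 4 cells and the median gene of the table in 10. Only 12 members were expressed in 5 or more cells: Cdh2, Cdh4, Cdh7, Cdh11, Pcdh7, Pcdh9, Pcdh10, Pcdh17, Pcdh18, Pcdh19, Pcdhgb8 and Pcdhgc3. Cdh2 was the exception to the sparse pattern, with expression in 53 cells. The type II cadherin Cdh20, the atypical cadherin Cdh16 and the clustered gene Pcdhb13 reached 10 CPM in no cell, and Cdh20 and Cdh16 peaked at 0.921 and 3.32 CPM. A cell expressed a median of 3 members, and at most 8.

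Among the classical cadherins Cdh2 encodes N-cadherin, the main cadherin of neural progenitor junctions. It was expressed in 16 of 18 Sox2 progenitors (88.9%, 95% interval 65.3 to 98.6), 13 of 16 Neurod6 neurons (81.3%, 54.4 to 96.0) and 10 of 11 Dlx5 cells (90.9%, 58.7 to 99.8). Levels ran from 0 through a median of 175 to 1765 CPM in progenitors, from 0.528 through 135 to 564 CPM in neurons and from 0.0972 through 36.1 to 1493 CPM in Dlx5 cells. The 3 ranges overlapped almost entirely. Mean log2(CPM + 1) was 6.74 (SD 2.86) in progenitors, 6.07 (SD 2.82) in neurons and 5.66 (SD 2.80) in Dlx5 cells. The Dlx5 mean was thus 1.07 below the progenitor mean, less than 1 SD. The Dlx5 cells that also expressed Sox2 had a Cdh2 mean of 4.01 (SD 2.81, 4 cells) against 6.61 (SD 2.50, 7 cells) in the others. The difference between Dlx5 cells and progenitors was -0.13 without the Dlx5 cells with Sox2, and -2.02 within title set 1. Between neurons and progenitors it was -0.67 over all sets, -1.77 within title set 1 and 0.11 within title set 3. Cdh2 was expressed in 30 of 31, 10 of 13 and 13 of 21 cells of title sets 1, 2 and 3.

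Cdh4 encodes R-cadherin, a type I relative of N-cadherin. Expression was found in 4 of 18 progenitors, at 422, 133, 82.4 and 58.4 CPM, in 2 of 11 Dlx5 cells, at 164 and 16.6 CPM, and in 0 of 16 neurons, a count that allows a share of up to 20.6%. The highest value in a neuron was 4.17 CPM. Its mean log2(CPM + 1) was 1.75 (SD 3.03) in progenitors and 0.19 (SD 0.60) in neurons, and in both classes the median cell had no Cdh4 read. All 4 expressing progenitors belonged to title set 1, and within title set 3 the difference between neurons and progenitors was 0.02.

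Cdh7, a type II cadherin, was expressed in no cell of the Sox2 progenitor class, which leaves out cells with Dlx5. Of the 4 Dlx5 cells that also expressed Sox2, 1 expressed Cdh7. The gene was expressed in 3 of 16 Neurod6 neurons, at 435, 131 and 106 CPM, and in 3 of 11 Dlx5 cells, at 221, 65.1 and 17.5 CPM. In the 18 progenitors only 2 of 292629309 reads came from Cdh7, and the highest value was 0.132 CPM. The upper limit on the share of expressing progenitors was 18.5%. Both other classes nevertheless overlapped the progenitors, because most of their cells were also at 0. All 3 Dlx5 cells with Cdh7 belonged to title set 1.

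Cdh11, a type II cadherin found in mesenchyme and in parts of the developing brain, was expressed in 6 of 16 neurons, at 379, 359, 279, 97.7, 48.8 and 18.9 CPM. It was expressed in 2 of 18 progenitors, at 146 and 26.5 CPM, and in 1 of 11 Dlx5 cells, at 155 CPM. The mean log2(CPM + 1) was 2.81 (SD 3.54) in neurons, 1.31 (SD 2.03) in progenitors and 1.16 (SD 2.28) in Dlx5 cells. The neuron minus progenitor difference of 1.51 was 0.27 without title set 1. The neuron with 3 or more Cajal-Retzius markers was 1 of the 6, and 3 of the 6 expressing cells outside the classes had 3 or more markers of Cajal-Retzius or of mural and meningeal cells. The part of those cell types in the Cdh11 values was not tested.

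Cdh13, or T-cadherin, lacks the cytoplasmic tail of the classical cadherins and is held in the membrane by a glycosylphosphatidylinositol anchor. Only 3 cells expressed it, all of them Neurod6 neurons, at 476, 263 and 167 CPM. The 18 progenitors held 1 Cdh13 read in all and the 11 Dlx5 cells none of 169052268. Each of the 3 Cdh13 neurons also expressed Pcdh9, and 2 of them came from title set 3 and 1 from title set 1.

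**Figure D2:**
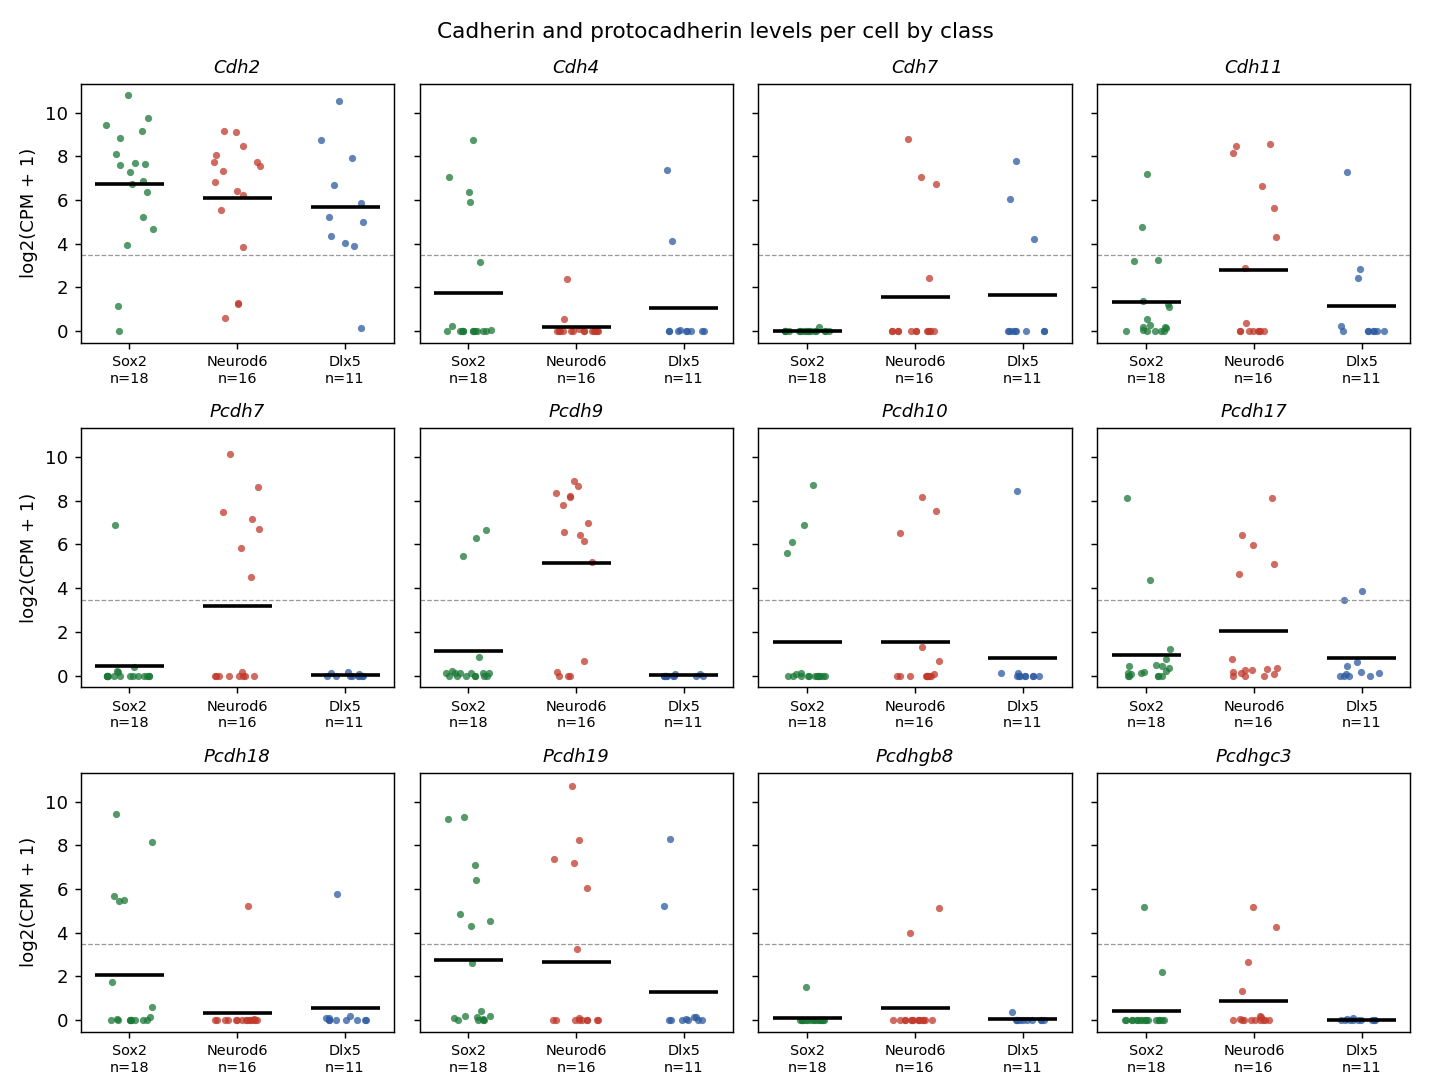
Level of the 12 members expressed in 5 or more cells, as log2(CPM + 1) on the vertical axis, in Sox2 progenitors, Neurod6 neurons and Dlx5 cells. Each point is 1 cell, the bar is the class mean and the dashed line marks 10 CPM. Most points lie at 0 except for Cdh2, and Pcdh9 and Pcdh7 have no point above the line among Dlx5 cells.

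Of the delta protocadherins, Pcdh9 differed most in mean between the classes. It was expressed in 11 of 16 Neurod6 neurons (68.8%, 95% interval 41.3 to 89.0), 3 of 18 progenitors (16.7%, 3.58 to 41.4) and 0 of 11 Dlx5 cells, a count that allows up to 28.5%. The neurons had a median of 90.4 and a highest value of 480 CPM, and their 11 expressing cells lay at 36.1 CPM or above. The 3 expressing progenitors had 101, 76.5 and 43.3 CPM, inside the range of the expressing neurons. Dlx5 cells were at the floor, with 2 Pcdh9 reads among 169052268 and a highest value of 0.0544 CPM. Mean log2(CPM + 1) was 5.15 (SD 3.61) in neurons, 1.12 (SD 2.33) in progenitors and 0.01 (SD 0.03) in Dlx5 cells. In neurons it was expressed in 7 of 11, 1 of 2 and 3 of 3 cells of title sets 1, 2 and 3, and in Dlx5 cells in none of any set.

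Pcdh7, the other delta1 protocadherin measured, was expressed in 7 of 16 neurons, at 1119, 400, 176, 141, 105, 56.2 and 21.7 CPM. A single progenitor, at 119 CPM, and no Dlx5 cell reached 10 CPM, and the highest Dlx5 value was 0.112 CPM. Its class means of log2(CPM + 1) were 3.17 (SD 3.86), 0.43 (SD 1.62) and 0.03 (SD 0.06) in neurons, progenitors and Dlx5 cells. Unlike Pcdh9, it was expressed in 0 of the 21 cells of title set 3, and the neuron minus progenitor difference within that set was -0.06. Pcdh9 and Pcdh7 shared 6 neurons, 5 neurons expressed Pcdh9 alone, 1 expressed Pcdh7 alone and 4 expressed neither. Tbr1, a factor of early-born deep layer neurons, was expressed in 12 of the 15 cells with Pcdh9 and in 7 of the 8 with Pcdh7. It was expressed in 14 of all 16 Neurod6 neurons, so that these shares are close to that of the class.

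Pcdh18, a delta2 protocadherin, was the protocadherin with the opposite shift. Expression was found in 5 of 18 progenitors, at 700, 284, 50.8, 44.7 and 43.2 CPM, in 1 neuron at 36.7 CPM and in 1 Dlx5 cell at 54.2 CPM. Its means of log2(CPM + 1) were 2.04 (SD 3.22) in progenitors, 0.33 (SD 1.31) in neurons and 0.56 (SD 1.74) in Dlx5 cells. Of the 9 cells with Pcdh18, 8 expressed the progenitor factor Pax6 and 7 the topoisomerase Top2a of dividing cells, compared with 29 and 32 of all 65 cells. Pax6 was expressed in 13 of all 18 progenitors. No cell expressed Pcdh18 together with Pcdh7, which was expressed in 8 of the 65 cells. Other sparse pairs, such as Cdh4 with Pcdh17, also shared no cell, and whether Pcdh18 and Pcdh7 avoid each other was not tested.

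Pcdh19, the delta2 protocadherin whose human counterpart is mutated in a female-limited epilepsy, was expressed in 7 of 18 progenitors, between 18.5 and 630 CPM. It was expressed in 5 of 16 neurons, between 64.1 and 1691 CPM, and in 2 of 11 Dlx5 cells, at 307 and 36.8 CPM. Progenitors and neurons had nearly the same mean log2(CPM + 1), 2.73 (SD 3.40) and 2.68 (SD 3.84), and the Dlx5 cells a lower one of 1.26 (SD 2.80). Within title set 3, which holds 3 neurons, the neuron minus progenitor difference was -1.78, and within title set 1 it was 0.53. The difference of -1.48 between Dlx5 cells and progenitors was -0.10 within title set 1, where most Dlx5 cells lie.

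The other delta2 genes showed no common direction. Pcdh10 was expressed in 4 progenitors (418, 118, 68.4 and 47.8 CPM), 3 neurons (288, 182 and 92.2 CPM) and 1 Dlx5 cell (344 CPM), and progenitors and neurons had means of log2(CPM + 1) of 1.53 (SD 2.97) and 1.52 (SD 2.96). These nearly equal means of Pcdh10 joined opposite differences between neurons and progenitors, -2.25 within title set 1 and 2.43 without it. Pcdh17 was expressed in 5 neurons (275, 84.4, 62.1, 33.3 and 24 CPM), 2 progenitors (281 and 19.6 CPM) and 2 Dlx5 cells (13.6 and 10.1 CPM). The progenitor at 281 CPM was the shallowest cell, in which 24 reads give that value, so that it weighs less than the others. The neuron minus progenitor difference of Pcdh17 was 1.09, 1.49 without the cells under 1000000 reads, 0.01 without title set 3 and 5.70 within it. Pcdh8 was expressed in 1 neuron, at 85.8 CPM, and in 2 cells outside the classes. Pcdh15, a protein of hair cell tip links, was expressed in 2 neurons, at 210 and 136 CPM, and in 1 progenitor, the shallowest cell, from 3 reads.

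Counted over all 26 members, 7 had a mean log2(CPM + 1) at least 1 higher, that is at least 2-fold on this scale, in Neurod6 neurons than in Sox2 progenitors (26.9%). Of all genes, 13.2% passed this bound upwards. The members that did so were Cdh7 (1.55), Cdh11 (1.51), Cdh13 (1.55), Pcdh7 (2.74), Pcdh9 (4.03), Pcdh17 (1.09) and Pcdhb3 (1.001). The count table holds only genes with reads in at least 5 cells. Cdh13 had reads in 7 cells, 5 of them Neurod6 neurons, and Pcdhb3 in 6 cells, 3 of them Neurod6 neurons. Both entered the table only through the neurons, so that their place in this count is not independent of that filter. Only Pcdh7 and Pcdh9 lay above the 95th percentile of all genes, 1.85. Cdh4 (-1.56) and Pcdh18 (-1.71) were lower, 7.69% of the members against 17.6% of all genes, and the other 17 stayed within the bound. The median difference was 0.06 over members and -0.07 over all genes.

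Between Dlx5 cells and Sox2 progenitors few members differed. Cdh7 alone was higher by the same bound (1.63), which is 3.85% of members against 11.6% of all genes. The Cdh7 difference was 0 without title set 1, which leaves 4 Dlx5 cells, and 0.81 with a pseudocount of 10. Cdh2 (-1.07), Pcdh9 (-1.11), Pcdh18 (-1.49) and Pcdh19 (-1.48) were lower, 15.4% of members against 17.3% of all genes. Pcdh18 was -0.70 within title set 1, -0.86 without title set 3, -0.80 with a pseudocount of 10 and -0.93 with classes set at 50 CPM, and Pcdh9 was -0.51 with a pseudocount of 10, -0.91 with classes set at 50 CPM and -0.996 without title set 2, all short of the bound. Both shares were no larger than those of all genes, and none of the 11 clustered genes passed. This comparison and the preceding one share the progenitors.

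Set against Neurod6 neurons, 8 members were lower in Dlx5 cells (30.8%, against 14% of all genes) and 0 were higher (12.5% of all genes). The 8 were Pcdh9 (-5.13), Pcdh7 (-3.13), Cdh11 (-1.65), Cdh13 (-1.56), Pcdh19 (-1.42), Pcdh17 (-1.24), Pcdh15 (-1.14) and Pcdhb3 (-1.001). They include 5 of the 8 protocadherins outside the clusters, and the median difference over those 8 genes was -1.19, where that over all genes was -0.0015. Of the 8 lower members, Cdh13 and Pcdhb3 entered the count table only through the neurons, as given above. Within title set 1, which holds 7 of the 11 Dlx5 cells and 11 of the 16 neurons, only 3 members were lower, against 15.3% of all genes. In that set the Pcdh17 difference was 0.0033 and that of Pcdh19 -0.64. The count of higher members was 1 under several other settings, among them the omission of the Dlx5 cells with Sox2 or of title set 1. Pcdh9 and Pcdh7 stayed past the bound in this comparison under all 12 alternatives, with ranges of -6.11 to -2.89 and -3.86 to -1.76.

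**Figure D3:**
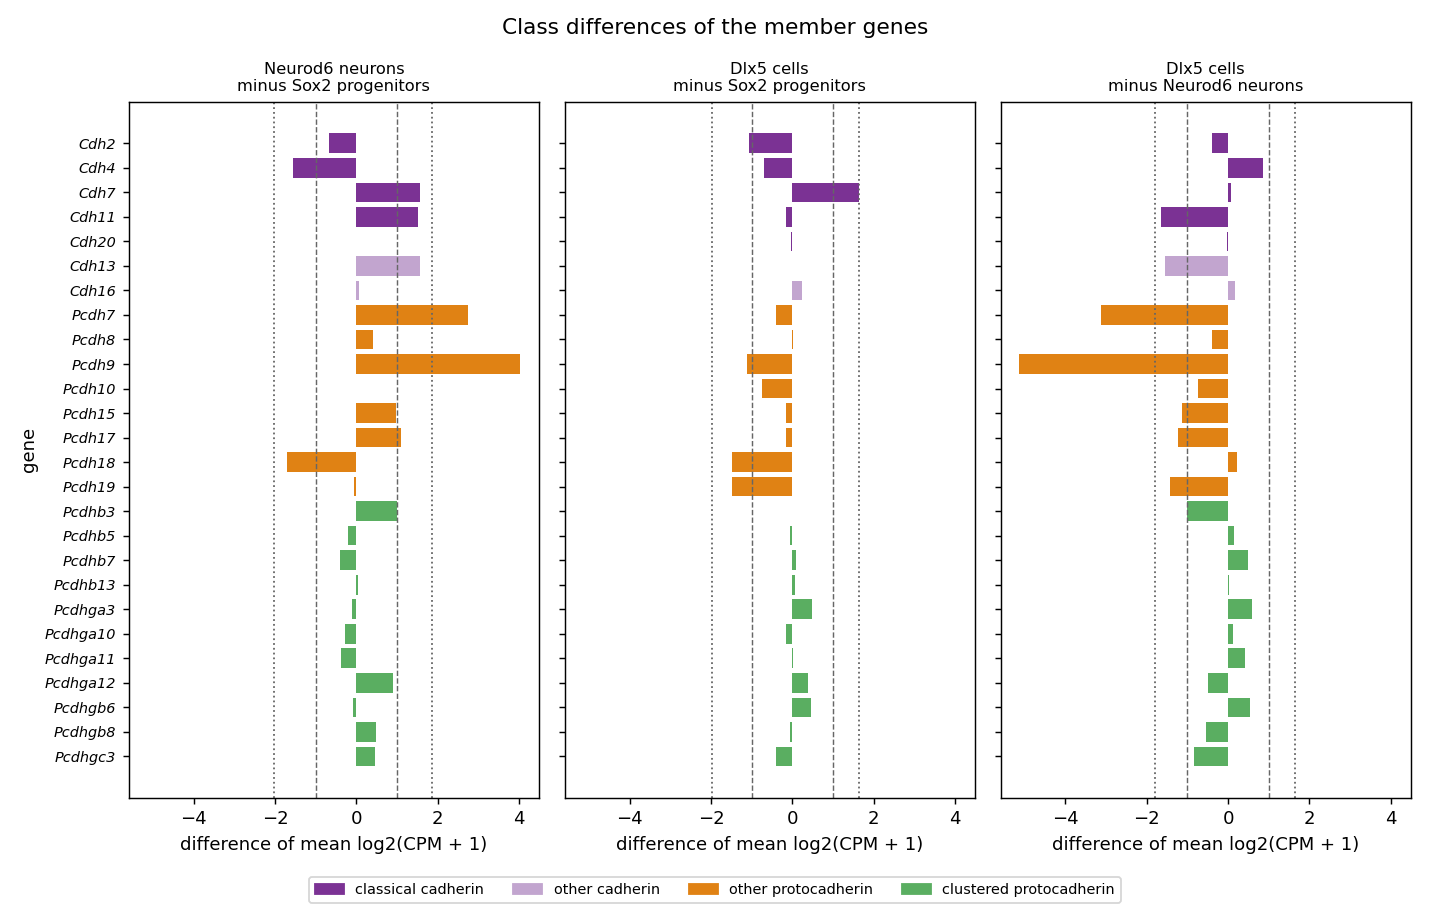
Difference of class means of log2(CPM + 1) for each of the 26 members, coloured by family, in the 3 class comparisons. Dashed lines mark the 2-fold bound and dotted lines the 5th and 95th percentiles of all 11971 genes. The bars of Pcdh9 and Pcdh7 pass the dotted lines in the comparisons of Neurod6 neurons with progenitors and of Dlx5 cells with neurons, and the clustered genes stay at or within the dashed lines.

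The clustered protocadherins measured were Pcdhb3, Pcdhb5, Pcdhb7 and Pcdhb13 of the beta cluster and Pcdhga3, Pcdhga10, Pcdhga11, Pcdhga12, Pcdhgb6, Pcdhgb8 and Pcdhgc3 of the gamma cluster. The count table has no row for an alpha isoform. Gamma isoforms share their constant 3′ exons and beta genes are close paralogs, so that the reads assigned to one isoform depend on how shared reads were counted. At least 1 was expressed in 25 of 65 cells (38.5%, 95% interval 26.7 to 51.4). The share was 5 of 18 in progenitors (27.8%, 9.69 to 53.5), 7 of 16 in neurons (43.8%, 19.8 to 70.1) and 4 of 11 in Dlx5 cells (36.4%, 10.9 to 69.2). Each of the 3 shares lies within the intervals of the other two, and the differences between them were not tested. One of the 5 progenitors counts only through 1 read of Pcdhgb6 in the shallowest cell.

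A cell that expressed a measured clustered gene usually expressed a single one of them. The count table holds only genes with reads in at least 5 cells, and isoforms missing from it are not seen. The numbers below are therefore not a cell's full set of isoforms. Of the 25 cells, 21 expressed 1 isoform, 3 expressed 2 and 1 expressed 3. In 10 of the 21, every other clustered gene had 0 reads, and in all 25 cells no gene below 10 CPM exceeded 6.50 CPM. Expressed values themselves were often far above the bound. A Neurod6 neuron of title set 1 had 316 CPM of Pcdhb3 and 258 CPM of Pcdhga12 with no read of the other 9. A cell of title set 2 outside the classes had 229 CPM of Pcdhgb6, 69.1 CPM of Pcdhga12 and 29.7 CPM of Pcdhga11. A Dlx5 cell had 219 CPM of Pcdhgb6 and 91.1 CPM of Pcdhga3.

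No isoform was expressed in more than 2 cells of any of the 3 classes. Pcdhgb8 and Pcdhgc3, each expressed in 5 cells, were the most widespread. Pcdhgb8 was expressed in 2 neurons (34 and 14.7 CPM) and 3 cells outside the classes, and Pcdhgc3 in 1 progenitor (34.8 CPM), 2 neurons (34.5 and 18.2 CPM) and 2 cells outside the classes, up to 426 CPM. Pcdhgc3 is a C-type isoform, a kind that neurons are known to express without the random choice that governs the other isoforms, and here it was found in 5 of 65 cells. Pcdhb3 passed the 2-fold bound between neurons and the other classes on the strength of 2 cells, at 316 and 195 CPM. The 25 cells held 13 distinct combinations of the measured clustered genes, 7 of them seen once. Over the 715 pairs of a clustered gene and a cell, 86.4% had no read, 30 reached 10 CPM and 67 lay between.

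**Figure D4:**
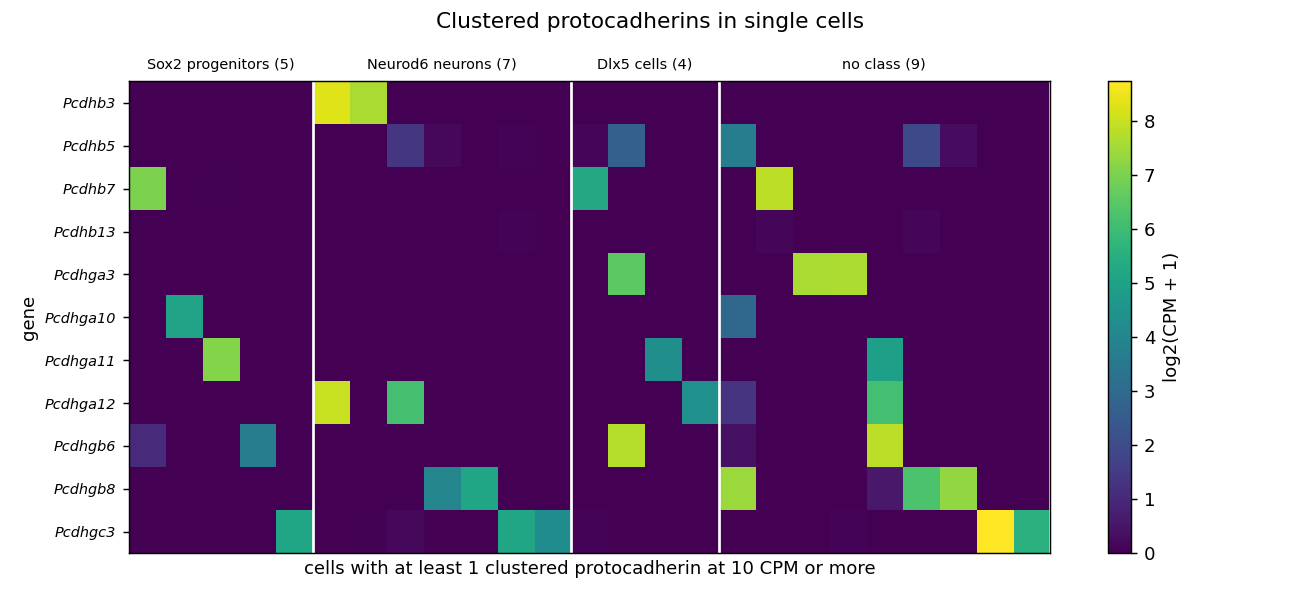
Level of the 11 clustered protocadherins (rows) in the 25 cells with at least 1 of them at 10 CPM or more (columns, grouped by class), as log2(CPM + 1) by colour. Most columns hold 1 bright square, and among neurons the same row recurs in 2 columns for Pcdhb3, Pcdhga12, Pcdhgb8 and Pcdhgc3.

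Taking all 26 members, the cells carried 52 distinct combinations of expressed genes. Only 2 combinations recurred: Cdh2 alone in 10 cells and no member in 5. Each of the other 50 cells had a combination of its own. Neurod6 neurons expressed on average 4.25 members (SD 2.44), Sox2 progenitors 2.78 (SD 1.40) and Dlx5 cells 2.45 (SD 1.69), ranges that overlap. The cell with the most, 8, was a Neurod6 neuron of title set 3 with Cdh7, Cdh13, Pcdh9, Pcdh10, Pcdh15, Pcdh17, Pcdh19 and Pcdhb3, and with no Cdh2 at 10 CPM. Another neuron of that set expressed 7, namely Cdh2, Cdh11, Cdh13, Pcdh8, Pcdh9, Pcdh17 and Pcdhgc3.

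Members seldom varied together across the 65 cells, which share preparation and differ in depth and title set. Over the 66 pairs of the 12 members expressed in 5 or more cells, the median Spearman rho was 0.04. The highest was 0.43 for Pcdh7 and Pcdh9, and it was 0.59, 0.33 and 0.15 in title sets 1, 2 and 3 and 0.42 within the 16 Neurod6 neurons. Next came Cdh2 with Pcdh9 (0.30), Cdh11 with Pcdh18 (0.28), Cdh7 with Pcdh17 (0.28) and Cdh4 with Pcdhgb8 (0.27). The lowest were Pcdh7 with Pcdh18 (-0.26), Pcdhgb8 with Pcdhgc3 (-0.19), Cdh11 with Pcdh10 (-0.17), Cdh7 with Pcdhgb8 (-0.15) and Cdh4 with Cdh7 (-0.14). For Pcdh7 with Pcdh18 the rho was -0.34, 0.39 and 0.19 in title sets 1, 2 and 3. In counts as sparse as these, values of this size are descriptions only. Among 8377 genes of mean CPM 10 or more, Uqcrc1 (0.51), Agpat1 (0.50) and Yme1l1 (0.48) were the most like Cdh2, and Cdr2l (0.54), Bend3 (0.50) and Irf9 (0.47) the most like Pcdh19. Those most like Pcdhgb8 were Tmem106b (0.50), Atp8b2 (0.44) and Scyl2 (0.42), and those most like Pcdhgc3 were Ivd (0.50), Slc25a16 (0.49) and Taz (0.44). Some of these ranks rest on reads below 10 CPM or on few cells: Atp8b2 was expressed in 3 cells, none of them with Pcdhgb8, and Irf9 in 2. Within title sets Irf9 had a rho of 0.09 with Pcdh19 in set 3 and Yme1l1 one of -0.06 with Cdh2 in set 2.

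Genes for proteins that work with cadherins differed in RNA level between the classes in both directions. The genes of this list and of those below were not examined by title set or under the other settings. Of 21 measured catenins and junction partners, 6 were at least 2-fold higher (13.2% of all genes) and 6 lower (17.6% of all genes) in Neurod6 neurons than in progenitors. Ctnna1 encodes the alpha-catenin that links cadherin complexes to actin. Its mean log2(CPM + 1) was 6.64 (SD 2.99) in progenitors and 4.04 (SD 3.61) in neurons (difference -2.61). The neuronal relative Ctnna2 had 1.56 (SD 2.92) and 4.42 (SD 3.65), a difference of 2.87. The nectin Pvrl3 (-3.78), the tight junction scaffold Tjp1 (-2.93), Magi1 (-1.68), Numb (-1.24) and the atypical protein kinase C gene Prkci (-1.01) were also lower in neurons. Jup (1.76), Adam10, a protease that cleaves N-cadherin (1.38), the nectin Pvrl1 (1.36), Ctnnd2 (1.36) and Vcl (1.05) were higher. Ctnnb1, which encodes beta-catenin, was expressed in 18 of 18 progenitors, 15 of 16 neurons and 10 of 11 Dlx5 cells. In Dlx5 cells 2 of the 21 were higher than in progenitors (Pvrl1 1.01, Pard6a 1.19), where 11.6% of all genes were, and 5 were lower, where 17.3% of all genes were (Magi1 -3.12, Tjp1 -2.39, Ctnna1 -2.30, Pvrl3 -1.76, Ctnnd1 -1.26).

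Among 10 measured large and related cadherins, Celsr3 (2.05), Fat3 (1.92), Dchs1 (1.76) and Celsr2 (1.72) were higher and Fat1 (-1.40) lower in neurons than in progenitors, that is 4 and 1 of 10, against 13.2% and 17.6% of all genes. The Celsr genes encode cadherins of planar cell polarity. In Dlx5 cells Dchs1 (1.43) and Fat3 (1.26) were higher than in progenitors, and Celsr1 (-2.40), Fat1 (-1.98) and Fat4 (-1.33) lower, against 11.6% and 17.3% of all genes. Of 7 measured repressors and regulators of classical cadherins, Scrt2 (3.03) and Zeb2 (2.85) were higher in neurons than in progenitors and 0 were lower, against 13.2% and 17.6% of all genes, and the median of the 7 was 0.41 against -0.07 over all genes. In Dlx5 cells Foxp2 (2.19), Scrt2 (2.06), Zeb1 (1.66) and Zeb2 (1.58) were higher and 0 lower, against 11.6% and 17.3% of all genes, and the median of the 7 was 1.58 against -0.09 over all genes.

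The last list held 18 measured protocadherin partners and regulators of the clusters. Cyfip2 (3.97) and Abi1 (1.49), actin regulator genes of the WAVE complex, to which some delta2 protocadherins bind, were higher in neurons than in progenitors. The kinase Fyn (3.03) was higher too, which makes 3 of 18 against 13.2% of all genes. A further 6 of 18, against 17.6% of all genes, were lower: Ctcf (-3.02), whose protein brings cluster promoters to their enhancers, the silencing factor Smchd1 (-2.88), the DNA methyltransferase Dnmt3a (-2.17), the WAVE subunit Nckap1 (-1.55), the cohesin release factor Wapal (-1.18) and the focal adhesion kinase Ptk2 (-1.02). Ctcf was expressed in 11 of 18 progenitors, 3 of 16 neurons and 4 of 11 Dlx5 cells. In Dlx5 cells Cyfip2 (2.30) and Abi1 (1.60) were higher than in progenitors and Dnmt3a (-2.95), Smchd1 (-2.19), Setdb1 (-1.64), Ctcf (-1.32) and Nckap1 (-1.06) lower, 2 and 5 of 18 against 11.6% and 17.3% of all genes. Over the 18 genes the median difference was -0.57 in neurons and -0.55 in Dlx5 cells, relative to progenitors, against -0.07 and -0.09 over all genes.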

How the data were processed

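Polyadenylated RNA of 65 single cells was amplified with a SMARTer full-length kit without molecular identifiers or strand, so that reads are not independent molecules, per the labels' protocols. The authors deposited raw counts of reads for 11971 genes, each with reads in at least 5 cells. Per the submitters' processing notes TopHat2, HTSeq and the build mm9 were used, and the annotation and the handling of shared reads are not given in the sources used here.

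CPM were computed over the total of each cell and used as log2(CPM + 1). Classes were set at 10 CPM of Sox2, Neurod6 and Dlx5. Comparisons are differences of class means, and a size of 1 or more is called 2-fold on this scale, which understates low genes. Members expressed in 5 or more cells are described with values and the others by counts and range. The 3 genes of highest rho are named for Cdh2, Pcdh19, Pcdhgb8 and Pcdhgc3, the classical cadherin, other protocadherin and clustered genes (the last a tie) expressed in most cells, and of each list the genes past 2-fold. The members, classes and lists were chosen with earlier results of these data known. Alternatives covered the pseudocount, scran 1.30.0 size factors, class and expression thresholds, shallow cells, title sets, thinning and a mean filter. The computation of class differences was checked on simulated counts, from which no value is given here. Python 3.11.15, pandas 2.3.3 and SciPy 1.17.1 were used. Promoters came from a RefSeq table of GRCm38.p6, another build than mm9, matched by symbol. Doublets were not called, since cells were sorted singly.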

Additional observations from a re-analysis of the deposited data

How the results depend on the processing

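With 1 pool of embryos and no replicate animals, the values describe these cells, and a member's difference often rests on a few cells. The direction and 2-fold call of Pcdh9 between neurons and progenitors held under all 12 alternatives that gave a value (2.38 to 6.30). The members called were fewer with a pseudocount of 10. Then 3 were higher and 0 lower in neurons than in progenitors, against 5.82% and 7.29% of all genes. In Dlx5 cells against progenitors they were 0 and 0, against 5.28% and 6.79% of all genes. In Dlx5 cells 2 were lower than in neurons, against 5.69% of all genes. With a 4-fold bound these counts were 2 and 0, 0 and 0, and 2. The shares of all genes were then 4.27% and 5.18%, 3.03% and 4.86%, and 3.84%. In the comparison of neurons with progenitors, 11 were higher and 1 lower without title set 1, against 22.2% and 18.9% of all genes. Within title set 1, 4 were lower, against 28.3% of all genes, and within title set 3, 11 were higher, against 27.2%. In Dlx5 cells against progenitors, 3 were higher without title set 1 (18.8% of all genes) and within it (13.7%). With classes set at 50 CPM, 1 was lower, against 15.6% of all genes. In Dlx5 cells against neurons, 1 was higher with classes from 3 or more markers, without Dlx5 cells that have Sox2, without title set 1, without title set 2, within title set 1, and without cells with 3 or more Cajal-Retzius or mural markers, an alternative chosen after seeing the data, and 3 were lower within title set 1. Of the differences past 2-fold, the sign turned for Pcdh17 between Dlx5 cells and neurons within title set 1 (0.0033), for Cdh4 (0.016) and for Pcdh7 (-0.064) between neurons and progenitors within title set 3. Of those under 2-fold it turned 36 times, 7 of them to 2-fold or more the other way. Without title set 1 these were Pcdh10 in neurons (2.43) and in Dlx5 cells (1.62) and Cdh4 in Dlx5 cells (1.02) against progenitors, and Cdh7 (-1.90) and Pcdh18 (-1.04) in Dlx5 cells against neurons. The others were Cdh11 in Dlx5 cells against progenitors within title set 1 (1.04) and Pcdh10 in neurons against progenitors within title set 3 (1.24). With 1 read taken as expression, a clustered protocadherin was found in 66.7% of progenitors, 75% of neurons and 81.8% of Dlx5 cells, with 1, 1.63 and 1.82 isoforms per cell. At 50 CPM the shares were 18.8% of neurons and 9.09% of Dlx5 cells. In progenitors only Pcdhb7 (127 CPM) and Pcdhga11 (137 CPM), each in 1 cell, stayed above 50 CPM. Without title set 1 the share in neurons was 80% of 5 cells. The cause of these differences was not tested. Within title set 2, and for Dlx5 cells within title set 3, classes had under 3 cells and no value was computed. Thinned to 1000000 reads, 62 cells were kept and 2 progenitors and 1 cell outside the classes were left out, and no share or isoform number for the clustered genes left its interval or SD.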

Other observations

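The 20 cells outside the classes, which expressed none of Sox2, Neurod6 and Dlx5, held further values of the members. Cdh2 was expressed in 14 of them, from 19.3 to 2602 CPM, and the highest of these exceeded every value in the 3 classes. Pcdh19 was expressed in 7, from 18.5 to 500.2 CPM, and Pcdh9 in 1, at 87.0 CPM. Pcdh8, expressed in 1 neuron of the classes, was expressed in 2 of these cells, at 51 and 35.4 CPM. Pcdhb7 reached its highest value, 235 CPM, in 1 of them, and 9 of the 20 (45%, 95% interval 23.1 to 68.5) expressed a clustered protocadherin. Of these 20 cells 2 expressed 3 or more mural and meningeal markers, with a summed level of up to 19800 CPM, and 2 expressed 3 or more Cajal-Retzius markers. Cdh11 was expressed in 6 of the 20, up to 481 CPM, and both cells with the mural and meningeal markers were among them.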
